A study of Mus musculus with 24 samples.

Results

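The immediate early genes of neuronal activity were followed in the hippocampus (HIP) and the entorhinal cortex (EC) of Ts65Dn mice and their wild-type (wt) littermates. The 10 genes were Fos, Fosb, Junb, Egr1, Egr2, Egr4, Arc, Npas4, Nr4a1 and Ier2, chosen by symbol and matched by Ensembl identifier, out of 55385 genes in the count table, and all 10 passed the filter on low counts in every comparison. RNA was sequenced from 24 libraries, 6 of wt HIP, 6 of wt EC, 6 of Ts65Dn HIP and 6 of Ts65Dn EC, so that each of 12 male mice aged 5 to 6 months gave both regions. Ts65Dn is a model of Down syndrome that carries a small extra chromosome with many of the genes triplicated in that condition, together with further genes that are not. The Ts65Dn mice and the wt littermates shared an F1 B6C3B background. The question behind the comparison of genotypes was which genes are dysregulated in these regions, since both contribute to the recognition memory that is affected in the model. None of the 10 genes lies on the extra chromosome, which derives from parts of chromosomes 16 and 17. Fos is on chromosome 12, Fosb on 7, Junb and Ier2 on 8, Egr1 on 18, Egr2 on 10, Egr4 on 6, Arc and Nr4a1 on 15 and Npas4 on 19. What the mice did in the hours before dissection, and the time of day, were not given in the sources used here, and the libraries hold whole dissected regions, in which more cells expressing a gene and more RNA per cell cannot be told apart.

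Immediate early genes are transcribed within minutes of synaptic activity, without the need for new protein. Calcium entering through NMDA receptors and voltage-gated channels, and the kinases it activates, act on factors that are already bound at their promoters, among them CREB, MEF2 and the serum response factor with its ternary complex partners. Most of the proteins they encode are transcription factors that switch on a later set of genes, and Arc acts at the synapse itself. In the HIP and the cortex these transcripts are widely used to mark neurons that were active shortly before, and they decay again within hours.

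The sequence before the start site can hold cis elements of this response, and 4 members are given because they represent the different families. RefSeq start sites on GRCm38.p6 were present for 7 of the 10 members, and none was used for Egr1, Arc and Ier2. The 250 bases before the start were searched on both strands for TGACG, the core of the cyclic AMP response element bound by CREB, for the CArG box bound by the serum response factor, for TGACTCA, the site of AP-1, for GCGTGGG, the site of the EGR proteins, and for TATAAA. At least 1 copy of TGACG was found upstream of 7 of 7 members and of 19.8% of the 27025 genes with a window. The CArG box was found within this window for Egr2 alone among the 7, and for 1.62% of the genes with a window. Sequence farther from the start and weaker forms of the box were not searched. A missing match therefore does not mean that a gene lacks the element. TGACTCA was found for 0 members and for 5.16% of genes, GCGTGGG for Junb and Npas4 and for 4.94%, and TATAAA for Fos and for 14.3%. TGACG and TGACTCA share their first letters and cannot match at the same place, TATAAA can lie inside a CArG box, and a match describes the sequence only. The 4 sequences run 5′ to 3′ on the strand of the gene and end at the base before the start site, and capitals mark TGACG, its reverse complement or the CArG box. They lie at chr12:85473640-85473889 on the plus strand for Fos, chr10:67537619-67537868 on the plus strand for Egr2, chr19:4989972-4990221 on the minus strand for Npas4 and chr15:101266596-101266845 on the plus strand for Nr4a1.
Fos: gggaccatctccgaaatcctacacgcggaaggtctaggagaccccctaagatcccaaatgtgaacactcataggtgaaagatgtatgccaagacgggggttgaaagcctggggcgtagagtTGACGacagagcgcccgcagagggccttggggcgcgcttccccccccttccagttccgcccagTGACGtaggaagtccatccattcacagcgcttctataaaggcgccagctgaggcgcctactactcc
Egr2: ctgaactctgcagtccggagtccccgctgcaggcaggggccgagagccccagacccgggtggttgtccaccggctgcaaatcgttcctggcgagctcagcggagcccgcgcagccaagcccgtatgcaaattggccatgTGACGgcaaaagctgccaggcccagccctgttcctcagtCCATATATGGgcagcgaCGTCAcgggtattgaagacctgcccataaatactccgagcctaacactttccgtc
Npas4: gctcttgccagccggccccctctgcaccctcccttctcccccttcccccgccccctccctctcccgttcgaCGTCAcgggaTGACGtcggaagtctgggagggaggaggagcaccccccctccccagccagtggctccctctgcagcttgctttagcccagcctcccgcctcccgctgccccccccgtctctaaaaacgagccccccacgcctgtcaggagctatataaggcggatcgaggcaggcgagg
Nr4a1: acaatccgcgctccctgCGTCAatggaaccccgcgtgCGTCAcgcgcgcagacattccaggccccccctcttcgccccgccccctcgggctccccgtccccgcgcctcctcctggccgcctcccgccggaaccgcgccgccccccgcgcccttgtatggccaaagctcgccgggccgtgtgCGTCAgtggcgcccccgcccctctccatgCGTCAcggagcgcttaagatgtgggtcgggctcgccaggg
Fos, a partner of the AP-1 complex, held TGACG at 129 and at 66 bases before its start. Egr2 has 5 start sites in RefSeq, and the window shown, 1 of 3 that held both elements, had 2 copies of TGACG around a CArG box that begins 72 bases before the start. Npas4 held 2 copies close together, and Nr4a1 held 4, the most of the 7 members.

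The libraries held between 23128589 and 40476492 counts, with medians of 28628981.5 in wt HIP, 27451344.5 in Ts65Dn HIP, 28366372 in wt EC and 30580057 in Ts65Dn EC. The HIP and EC libraries of 1 mouse did not match their label. Over 64 expressed triplicated genes, the median level relative to the wt mean was 1.47 to 1.53 in 5 of the Ts65Dn HIP libraries and 1.46 to 1.54 in 5 of the EC libraries. It was 1.01 in the HIP library labelled Ts65Dn replicate 3 and 1 in its EC library (0.982 to 1.02 in wt HIP, 0.985 to 1.01 in wt EC). Another mouse, Ts65Dn replicate 6, had its triplicated genes at the raised level but stood apart in the immediate early genes themselves, as described below. Results that rest on these mice are therefore also given without them. For the genotypes, replicate 3 alone was left out mainly for the members as a set. Single genes are mostly given without replicate 6 or without both mice. Replicate 6 was left out because these genes were high in it, so values without it describe how far a result rests on that mouse and are no test of a lower level in Ts65Dn.

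The members were first compared by level, in CPM (counts scaled to a common library size, with TMM factors) and, between genes, in CPM per kilobase of exon. In wt HIP the highest mean level per kilobase was that of Arc, 31.3 ± 9.67 CPM per kilobase (SD, n = 6), followed by Egr1 at 22.5 ± 10.6, Junb at 12.5 ± 3.28 and Nr4a1 at 11.2 ± 3.60. Below them came Egr4 at 4.41 ± 1.88 CPM per kilobase, Fos at 3.49 ± 2.57, Ier2 at 2.54 ± 0.730, Npas4 at 1.13 ± 0.434 and Fosb at 0.945 ± 0.367, and Egr2 was lowest at 0.436 ± 0.381. In wt EC, Egr1 came first at 50.1 ± 16.4, ahead of Arc at 34.8 ± 16.4, Junb at 17.7 ± 5.44 and Nr4a1 at 16.6 ± 5.02 CPM per kilobase. The order ended with Egr4 at 9.03 ± 3.92, Fos at 8.84 ± 4.73, Ier2 at 4.22 ± 1.13, Npas4 at 2.46 ± 0.523, Fosb at 2.24 ± 0.532 and Egr2 again last, at 1.97 ± 1.44 CPM per kilobase. Neighbours such as Arc and Egr1, Junb and Nr4a1 or Egr4 and Fos differed by less than the SD of either, whereas the highest and the lowest member differed by more than their spread.

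**Figure D1:**
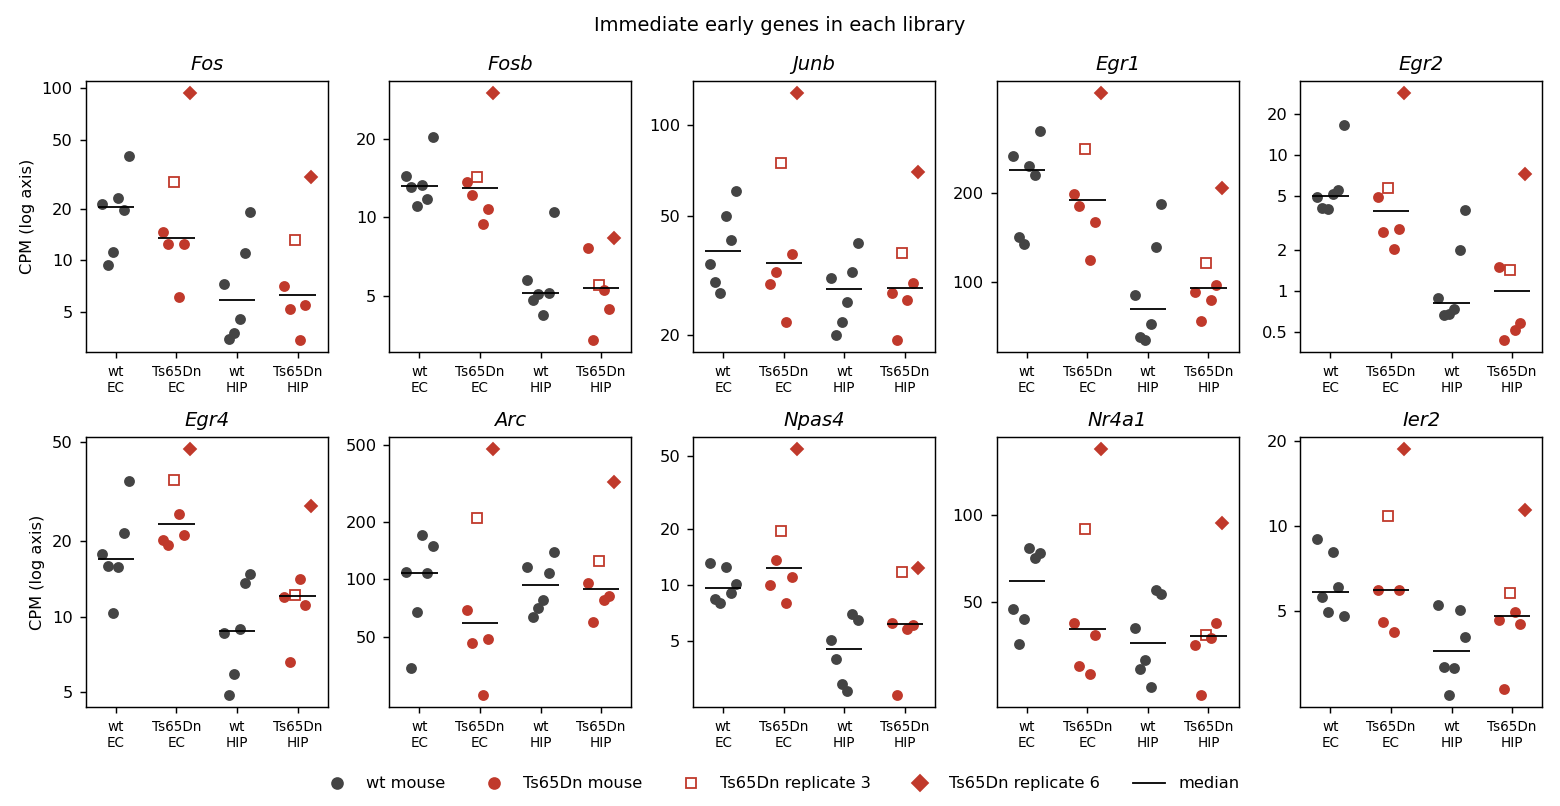
Level of each immediate early gene in the 24 libraries, in CPM on a log axis, by genotype and region; each point is a library, the bar is the group median, and Ts65Dn replicates 3 and 6 have their own symbols. Ts65Dn replicate 6 lies at the top of its group for every gene in both regions, while the ranges of wt and Ts65Dn overlap for every gene.

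The members were lower in the HIP than in the EC, with Arc as the exception. Within wt mice, 9 of the 10 were called lower in the HIP and 0 higher by edgeR's quasi-likelihood test with a term for each mouse and Benjamini-Hochberg adjustment over all genes (61.3% of the 17196 genes tested were called, 30.3% lower and 31.0% higher). The median log2 fold change of the 10 genes was -1.11, against 0.00156 for all genes. In Ts65Dn mice, 8 of the 10 were called lower and 0 higher (52.3% of 17314 genes, 25.7% lower and 26.6% higher), with a median of -1.02. Lower levels in the HIP in all 6 mice were seen for 9 members in wt and 6 in Ts65Dn, against 26.4% and 22.6% of all genes.

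Egr2, a zinc finger factor known in neurons for its induction by strong activity, had the largest difference between the regions. Its level was 4.01 CPM at the lowest, 5.02 at the median and 16.6 at the highest in wt EC, and 0.664, 0.821 and 3.92 CPM in wt HIP. No HIP library of a wt mouse reached the lowest wt EC library. The HIP level was 0.21 times that of the EC in wt (log2 fold change -2.25 ± 0.17 SE, adjusted p = 1.31e-06) and 0.243 times in Ts65Dn (-2.04 ± 0.13, adjusted p = 6.61e-07). Egr1, the family member used most widely as an activity marker, ran from 135 to 324 CPM in wt EC with a median of 239, and from 63.9 to 183 with a median of 81.0 in wt HIP. These ranges overlapped between mice, yet all 6 wt mice and all 6 Ts65Dn mice had less Egr1 in the HIP than in their own EC. Its log2 difference was -1.20 ± 0.12 in wt (adjusted p = 1.13e-05) and -0.99 ± 0.10 in Ts65Dn (adjusted p = 2.48e-05). Egr4 was lower by a similar margin, -1.05 ± 0.12 in wt and -1.06 ± 0.12 in Ts65Dn.

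Fos, Fosb and Junb encode subunits of AP-1, the dimeric factor formed by Fos and Jun proteins. Fos ranged from 9.35 to 40.5 CPM with a median of 20.4 in wt EC, and from 3.49 to 19.1 CPM with a median of 5.89 in wt HIP. In Ts65Dn mice it ranged from 6.15 to 93.6 CPM with a median of 13.5 in the EC, and from 3.46 to 30.4 CPM with a median of 6.31 in the HIP. Between mice the regions overlapped, but within every one of the 12 mice the HIP was the lower region. The fold of HIP over EC was 0.371 in wt (95% interval 0.291 to 0.474, adjusted p = 2.35e-05) and 0.431 in Ts65Dn (0.372 to 0.5, adjusted p = 3.2e-06). Fosb, whose splice form is known to accumulate under repeated stimulation, was the member whose regions did not overlap in either genotype, with 11.1 to 20.3 CPM in wt EC against 4.20 to 10.5 in wt HIP, and 9.45 to 29.9 against 3.39 to 8.34 CPM in Ts65Dn. Its log2 difference was -1.28 ± 0.09 in wt and -1.35 ± 0.14 in Ts65Dn. Groups that did not overlap were also seen for Egr2 and Npas4 in wt, 3 members in all in wt and 1 in Ts65Dn, against 33.4% and 26.4% of all genes. Junb had a smaller difference, -0.50 ± 0.09 in wt (adjusted p = 0.000662) and -0.49 ± 0.14 in Ts65Dn (adjusted p = 0.0163). The Ts65Dn call for Junb was lost without replicate 2 (adjusted p = 0.0503), 3 (0.0508) or 6 (0.0577), and its reads may include some of Prdx2, a gene that overlaps it by 351 bases on the other strand and held 119787 counts over all libraries against 27741 for Junb.

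Npas4, a factor of the bHLH-PAS family that is induced by calcium entry in neurons and acts on inhibitory synapses, ranged from 7.95 to 13.1 CPM in wt EC and from 2.67 to 6.97 in wt HIP, without overlap. The difference on the log2 scale was -1.16 ± 0.20 in wt (adjusted p = 0.000481) and -1.23 ± 0.25 in Ts65Dn (adjusted p = 0.00196). Ier2, a small nuclear protein of the rapid response, was lower at -0.74 ± 0.14 in wt (adjusted p = 0.00114) and at -0.51 ± 0.14 in Ts65Dn (adjusted p = 0.0103). Nr4a1, an orphan nuclear receptor, was called in wt (-0.56 ± 0.15, adjusted p = 0.00793) and not in Ts65Dn (-0.36 ± 0.18, adjusted p = 0.109), where 4 mice were lower in the HIP and 2 higher. Without Ts65Dn replicate 4 the call was reached (adjusted p = 0.0237).

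Arc, the effector that promotes removal of AMPA receptors from the synapse, was the member with no difference between regions past the threshold in either genotype. It measured 34.3 CPM at the lowest, 108 at the median and 170.1 at the highest in wt EC, and 63.3, 92.9 and 138 CPM in wt HIP. The difference was -0.04 ± 0.19 in wt (95% interval -0.46 to 0.38, adjusted p = 0.859), with 2 mice lower and 4 higher in the HIP. In Ts65Dn EC the 6 libraries spread from 24.9 to 478 CPM with a median of 58.9, and in Ts65Dn HIP from 59.9 to 320.5 with a median of 88.9. The difference in Ts65Dn was 0.28 ± 0.26 (interval -0.29 to 0.86, adjusted p = 0.382), again with 2 mice lower and 4 higher. Ts65Dn replicates 3 and 6 were the 2 mice with less Arc in the HIP (124 against 209 CPM and 320.5 against 478 CPM). Leaving them out, a choice made after the data were seen, kept only mice with more Arc in the HIP. The estimate of 0.79 ± 0.18 (adjusted p = 0.00925) from that fit is therefore no test of a higher level in the HIP. The same choice left 7 of the members called, with Fos, Fosb, Egr1, Egr2, Egr4 and Npas4 lower at between -2.11 and -0.89, while Junb (-0.24) and Ier2 (-0.33) did not pass.

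**Figure D2:**
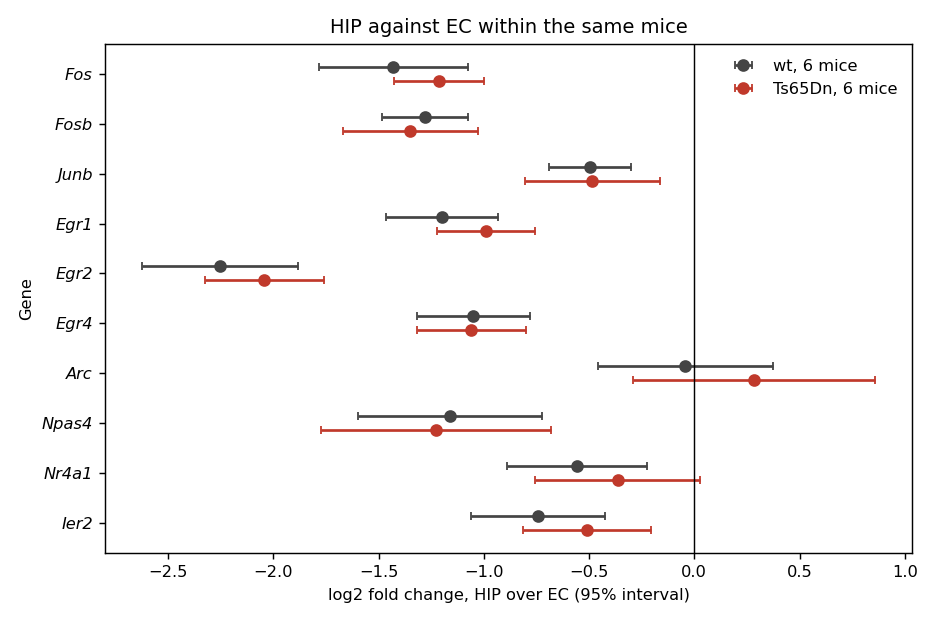
Log2 fold change of HIP over EC for each immediate early gene, fitted within 6 wt mice (grey) and 6 Ts65Dn mice (red), with 95% intervals. Every interval of Fos, Fosb, Junb, the EGR genes, Npas4 and Ier2 lies below 0 in both genotypes, and those of Arc include 0.

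None of the 10 genes was called between Ts65Dn and wt mice in either region. In the HIP 1.04% of the 17355 genes tested were called (0.542% higher and 0.501% lower), and in the EC 2.5% of 17049 (1.15% higher and 1.35% lower). The groups did not overlap for 0 members, against 1.65% of all genes for HIP and 2.36% for EC libraries. The fold changes leaned to higher values in Ts65Dn, positive for 9 members in the HIP with a median log2 fold change of 0.40 and for 10 in the EC with a median of 0.39, against medians of 0.00466 and 0.00463 over all genes. This lean came with 1 mouse. Without Ts65Dn replicate 6, 3 members were positive in the HIP (median -0.12) and 2 in the EC (median -0.24), and without Ts65Dn replicates 3 and 6 again 3 (median -0.19) and 2 (median -0.44). Without Ts65Dn replicate 3 alone the lean stayed, with 9 members positive in the HIP (median 0.37) and 9 in the EC (median 0.29). Called members remained at 0 under each of these choices and by DESeq2. By edgeR with all mice, 1 member, Npas4, had an unadjusted p below 0.05 among EC libraries, and 0 members did among HIP libraries. Over all genes tested, 3235 of 17049 lay below that value for EC libraries, and 2572 of 17355 for HIP libraries. Next to these numbers, 1 of 10 members is no excess and does not set Npas4 apart.

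Npas4 had the largest fold change. In wt EC it measured 7.95 CPM at the lowest, 9.56 at the median and 13.1 at the highest, and in Ts65Dn EC 7.96, 12.4 and 54.4 CPM. Of the 6 Ts65Dn libraries 3 lay within the wt range and 3 above it, at 13.7 (replicate 2), 19.7 (replicate 3) and 54.4 CPM (replicate 6). Replicate 3 is the mouse whose triplicated genes stood at the wt level. The fold of Ts65Dn over wt was 1.9 in the EC (95% interval 1.06 to 3.42, unadjusted p = 0.033, adjusted p = 0.217) and 1.59 in the HIP (0.953 to 2.67, adjusted p = 0.391). Without replicate 6 the log2 fold change in the EC was 0.28 in place of 0.93, and without replicates 3 and 6 it was 0.07 ± 0.17.

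Egr4, which like Npas4 stayed positive with every mouse left out, was at 0.56 ± 0.33 in the HIP (adjusted p = 0.465) and 0.53 ± 0.27 in the EC (adjusted p = 0.307), and stood at 0.24 and 0.32 without Ts65Dn replicate 6. Its lowest Ts65Dn EC library, at 19.4 CPM, lay above the wt median of 16.9. The wt range of 10.3 to 34.9 CPM held all but the 2 highest Ts65Dn values. These were 35.2 CPM in replicate 3, with triplicated genes at the wt level, and 46.9 CPM in replicate 6. Ier2 stood at 0.55 ± 0.29 in HIP and 0.38 ± 0.33 in EC.

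For Fos the estimate was 0.40 ± 0.54 in HIP and 0.43 ± 0.56 in EC, with intervals from -0.77 to 1.57 and from -0.76 to 1.62, so that neither a lower nor a clearly higher level could be told at this spread. The Ts65Dn medians, 6.31 CPM in HIP and 13.5 in EC, stood next to wt medians of 5.89 and 20.4. Without Ts65Dn replicate 6 the estimates were -0.25 and -0.49. Fosb lay near 0, at -0.04 ± 0.25 in HIP and 0.10 ± 0.24 in EC, and Junb measured 0.28 ± 0.27 and 0.40 ± 0.37.

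Arc showed the widest spread of all in the EC. Its estimate was 0.45 ± 0.61 with all 12 mice, -0.43 without Ts65Dn replicate 6, and -1.17 ± 0.38 without replicates 3 and 6. In that same choice Nr4a1 measured -0.74 ± 0.21, Egr2 -1.08 ± 0.41 and Fos -0.86 ± 0.36, and 0 members were called. With all mice Nr4a1 was at 0.20 ± 0.29 in HIP and 0.18 ± 0.39 in EC, Egr2 at 0.41 ± 0.69 and 0.22 ± 0.60, and Egr1 at 0.16 ± 0.29 and 0.02 ± 0.28.

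**Figure D3:**
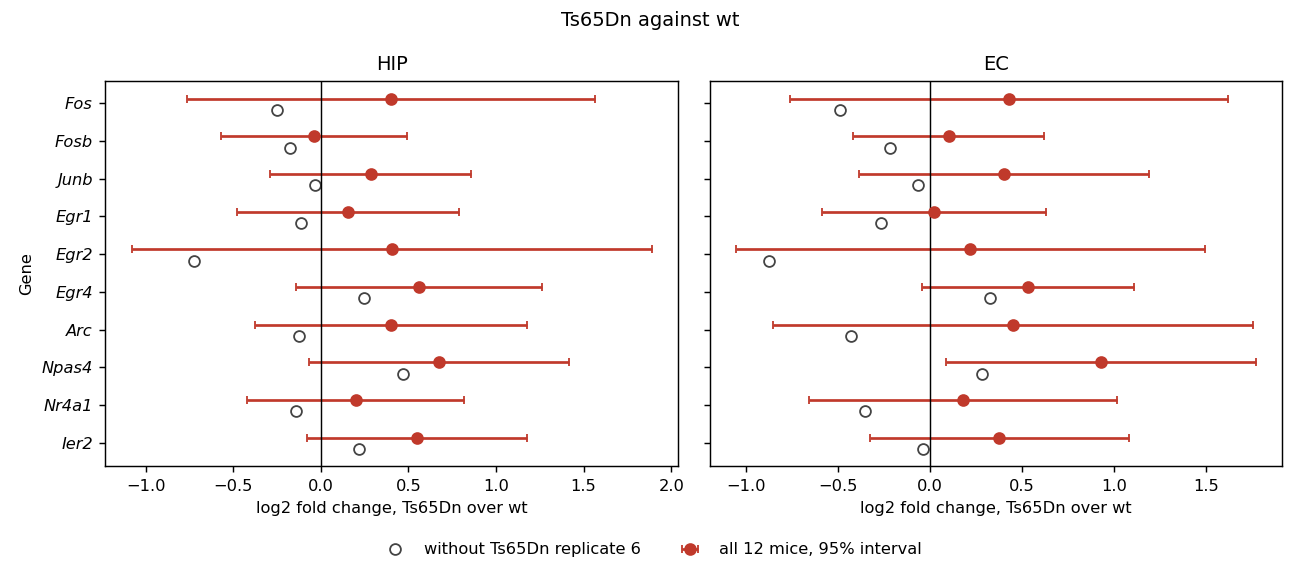
Log2 fold change of Ts65Dn over wt for each immediate early gene in the HIP (left) and the EC (right); filled points with 95% intervals use all 12 mice, and open points leave out Ts65Dn replicate 6. The filled points lie mostly above 0 and most of the open points below it, with only the interval of Npas4 in the EC excluding 0.

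Whether the difference between genotypes itself differed between regions was tested over all 24 libraries with a term for each mouse. The interaction called 0 of 18109 genes (742 had an unadjusted p below 0.05) and 0 members, whose unadjusted p lay between 0.25 for Egr1 and 0.971 for Egr4. The largest member estimate was that of Arc, 0.32 ± 0.37, with an interval from -0.46 to 1.10.

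The members varied widely between mice of one group. The median SD of log2 CPM over the 10 genes was 0.515 in wt HIP and 0.486 in wt EC, and 0.669 in Ts65Dn HIP and 0.971 in Ts65Dn EC, against 0.154, 0.169, 0.184 and 0.185 for all 18109 genes. A list of 34 other measured rapid response genes lay between, at 0.277, 0.291, 0.289 and 0.388 in the same order. Without Ts65Dn replicate 6 the members' median fell to 0.421 in Ts65Dn HIP and 0.566 in Ts65Dn EC, that of the other rapid response genes was 0.238 and 0.284, and that of all genes 0.188 and 0.174. Each member's SD lay between the 72.9th and the 99.5th percentile of all genes. The highest library held 2.55 times the lowest at the median over the members in wt HIP and 5.82 times in Ts65Dn EC (2.67 without replicate 6), where all genes had 1.33 and 1.41. The extremes were Arc in Ts65Dn EC, 19.2 times between its highest and lowest mouse, and Egr2 in Ts65Dn HIP, 16.5 times, and without replicate 6 these ratios were 8.39 and 3.41. These ratios rest on counts of at least 12, the lowest being that of Egr2 in Ts65Dn HIP, and of at least 754 for Arc in Ts65Dn EC.

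The same mice carried the high values across the genes. Ts65Dn replicate 6 was the highest of the 12 mice for 9 members in the HIP, all but Fosb, and for 10 in the EC, where it was the highest for 7.31% and 9.66% of all genes. Its level over the median of the other 11 mice was 5.53 times for Fos in the HIP and 6.44 times for Fos in the EC. For Egr2 it was 9.78 times in the HIP and 5.78 times in the EC, for Arc 3.93 and 6.93 times, and for Fosb 1.63 and 2.28 times. The lowest ratio was that of Fosb in the HIP, and that of Egr1, 2.20 times, in the EC. The mean deviation of the 10 genes from the mean of the 12 mice was 1.44 on the log2 scale in its HIP and 1.73 in its EC. Next above the mean came wt replicate 6, by 0.69 in HIP and 0.55 in EC, and the mouse labelled Ts65Dn replicate 3, by 0.37 and 0.60. Smaller mean deviations above 0 included those of wt replicate 5, at 0.33 in HIP and 0.0071 in EC, and wt replicate 4, at 0.19 in EC. At the low end, Ts65Dn replicate 2 was lowest for 6 members in the HIP and Ts65Dn replicate 4 for 8 in the EC, where its mean deviation was -0.90.

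**Figure D4:**
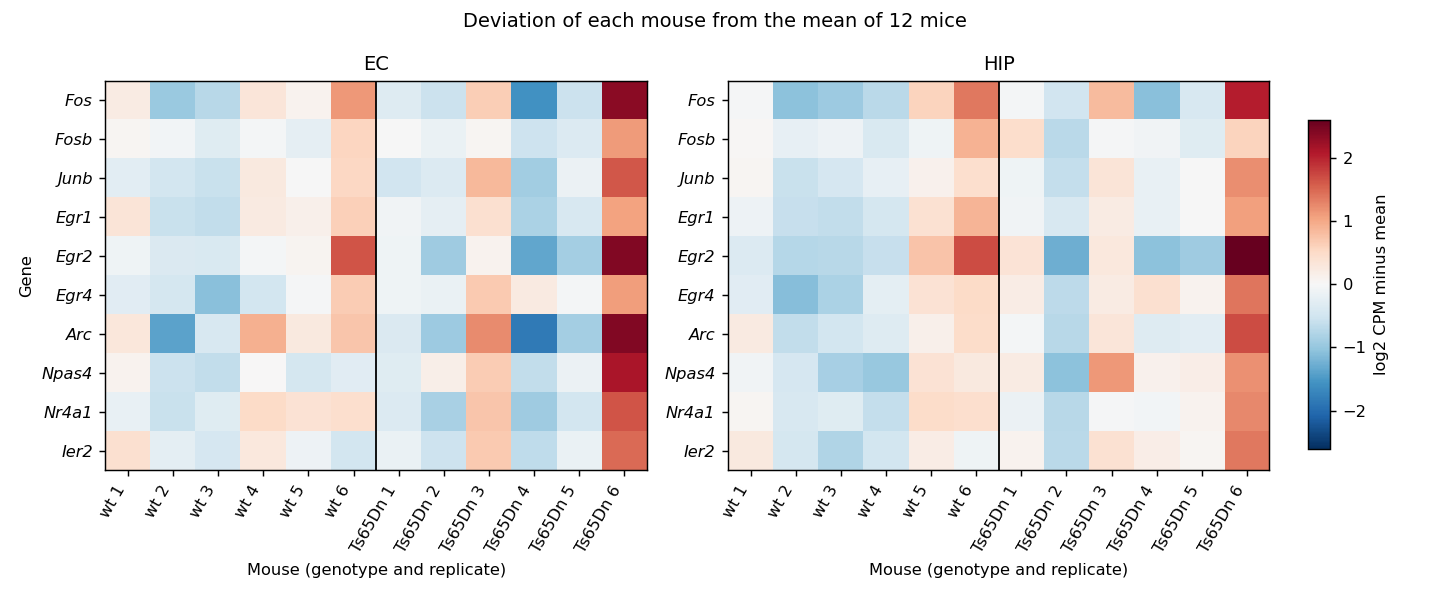
Deviation of each mouse from the mean of the 12 mice of a region, in log2 CPM, for each immediate early gene (rows) in the EC and the HIP; red is above and blue below the mean, and the line divides wt from Ts65Dn. Ts65Dn replicate 6 is red in every row of both regions, with wt replicate 6 and the mouse labelled Ts65Dn replicate 3 mostly red as well.

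The order of the mice was shared between the regions to a degree that varied by gene. For Fos and Egr2, 11 of the 12 mice held ranks in the HIP and the EC that were no more than 2 apart, and 8 mice held the same rank for Fos. Npas4 shared least, with 5 mice within 2 ranks and a largest gap of 9. Of the 4 highest mice in the HIP, 3 were also among the 4 highest in the EC for 8 of the members, and 2 for Npas4 and Nr4a1.

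The libraries of Ts65Dn replicate 6 were examined for other cell types. Its 8 neuron markers summed to 10503 CPM in the EC and 9028 in the HIP, the second highest of the 12 mice in each region, against 9817 to 11041 CPM in wt EC and 8128 to 9014 in wt HIP. In the EC it was the lowest of the 12 mice for the summed astrocyte markers, at 1864 CPM, the microglia markers, at 277, the endothelial and mural markers, at 329, and the meningeal fibroblast markers, at 39.7. The ranges over wt EC were 2218 to 2677, 287 to 386, 358 to 459 and 41.2 to 122 CPM. The striatal markers were at their highest there, 242 CPM against 166 to 194 in wt EC, and its mitochondrial share of counts was 3.82%, the lowest of the 12 EC libraries (4.51% to 7.06% in wt EC). In the HIP its marker sums lay inside the range of the other mice. No marker of these lists was at 0 in its libraries, and the part of cell composition in the levels of the immediate early genes was not tested.

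The 10 genes varied together over the 24 libraries once the mean of each region was removed. Pearson's r of a member with the mean of the other 9 ran from 0.764 for Egr4 to 0.960 for Junb, and between 0.604 for Egr4 and 0.944 for Egr1 without Ts65Dn replicate 6. Among the 45 pairs of members the closest were Fos and Egr1 (r = 0.960) and the least close Egr4 and Arc (r = 0.618). These are descriptions over 24 libraries, of which each mouse gave 2, so no p is attached.

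Among the 16592 genes compared, members aside, the most alike to the mean of the members was Trib1, a pseudokinase of the rapid response, at r = 0.920 (0.820 without Ts65Dn replicate 6). Next came Arl4d, a small GTPase, at 0.893 (0.845), Dusp1, the phosphatase that inactivates MAP kinases, at 0.891 (0.770), Chrm4, a muscarinic receptor, at 0.884 (0.908), and Zfp27, a zinc finger protein, at 0.857 (0.763). For comparison, the median over all genes that are no member was 0.00352 and the 99th percentile 0.650. Of the 30 most alike genes, 7 belonged to a list of 35 other rapid response genes, of which 34 were among the 16592 genes compared.

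That list had a median r of 0.579 over its 34 measured genes, from -0.346 for Klf6 to 0.920 for Trib1, and a median of 0.382 without Ts65Dn replicate 6. A list of 25 delayed activity-regulated genes, the kind that immediate early factors switch on, had a median of 0.269 (0.343 without that mouse), with Dusp6 at the top (0.797). The median was 0.0240 (-0.032 without it) for upstream signalling and transcription factors, 0.234 (0.174) for partners and repressors and 0.235 (0.294) for glucocorticoid-responsive genes. Neuron markers had a median of 0.226 (0.197 without Ts65Dn replicate 6) and striatal markers 0.290 (-0.059). Markers of microglia (-0.366, and -0.246 without it) and meningeal fibroblasts (-0.338 and -0.276) had negative medians either way. Those of astrocytes (-0.358 and -0.050) and of endothelial and mural cells (-0.271 and 0.044) were near 0 without that mouse. Of the 34 other rapid response genes, 14 were highest in Ts65Dn replicate 6 among the HIP libraries (41.2%) and 15 among the EC libraries (44.1%), as were 4 and 5 of the 25 delayed genes.

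**Figure D5:**
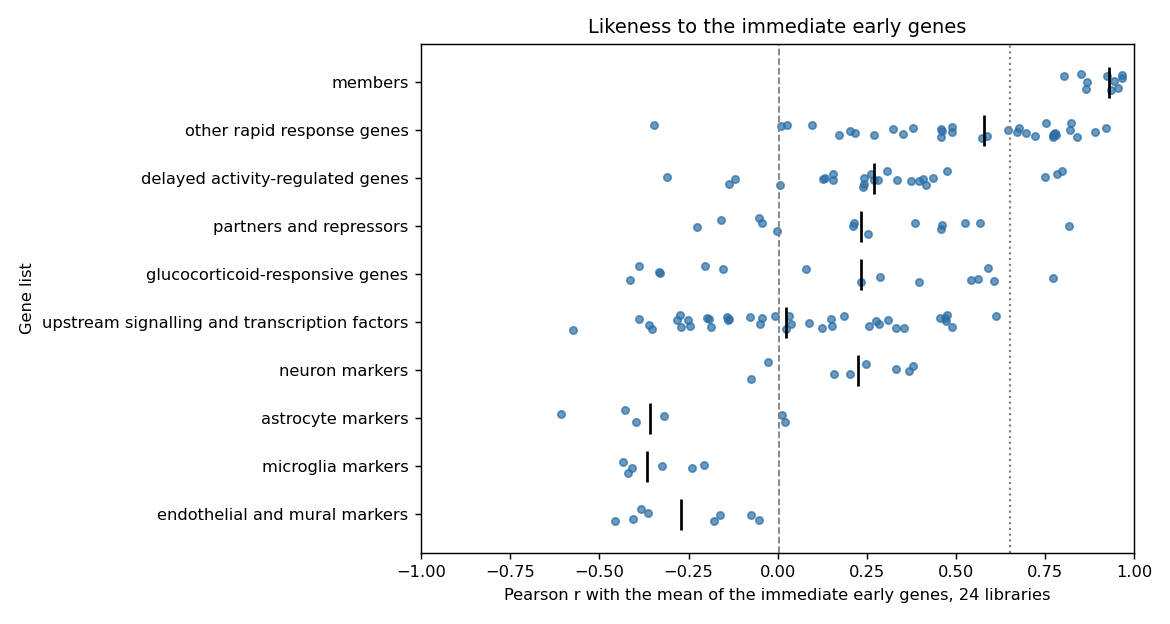
Pearson r of single genes with the mean of the immediate early genes over 24 libraries (log2 CPM minus the regional mean), by gene list. The vertical bars are list medians. Over all genes that are no member, the dashed line is the median, 0.00352, and the dotted line the 99th percentile, 0.650. The members, each of which is itself part of that mean, lie between 0.802 and 0.967. The other rapid response genes, which are not part of it, spread from -0.346 to 0.920.

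By edgeR, genes of the related lists were called between the genotypes in the EC alone. Over all genes tested, 1.04% were called in the HIP and 2.5% in the EC. In the HIP, 0 of 34 other rapid response genes, 0 of 25 delayed genes, 0 of 39 upstream factors, 0 of 14 dimerization partners and repressors and 0 of 15 glucocorticoid-responsive genes were called. The smallest unadjusted p values were those of Klf9 (log2 fold change -0.29 ± 0.08, adjusted p = 0.0862) and Sgk1 (0.20 ± 0.06) among the glucocorticoid-responsive genes, Pdyn (-0.42 ± 0.11, adjusted p = 0.0928), the precursor of dynorphin, and Rgs2 (-0.23 ± 0.06) among the delayed genes, Map2k2 (0.28 ± 0.09) and Prkaca (0.13 ± 0.04) among the upstream factors, Rxrb (0.14 ± 0.05) and Jund (0.33 ± 0.14) among the partners, and Csrnp1 (0.26 ± 0.11) and Zfp36 (0.26 ± 0.11) among the rapid response genes. None of these passed the test by edgeR. Those with an unadjusted p below 0.05 numbered 2, 4, 4, 2 and 3 in the order of the lists above, against 2572 of all 17355 genes tested. DESeq2 called 3 delayed genes and 1 glucocorticoid-responsive gene, all lower, and 0 of the other lists. Without Ts65Dn replicates 3 and 6, Rgs2 measured -0.30.

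In the EC, 1 of 39 upstream factors was higher and 3 were lower in Ts65Dn (1.15% and 1.35% of all genes tested). Srf, the serum response factor that binds the CArG box, rose (0.24 ± 0.06, adjusted p = 0.0412). Mef2c, an activity-regulated transcription factor (-0.32 ± 0.07, adjusted p = 0.0226), Ppp3r1, the regulatory subunit of calcineurin (-0.29 ± 0.06, adjusted p = 0.0309), and Rps6ka3, the kinase RSK2 (-0.26 ± 0.06, adjusted p = 0.0408), fell. Nrip1, a corepressor of nuclear receptors, was the 1 partner or repressor called (-0.23 ± 0.05, adjusted p = 0.0313), and Klf9 the 1 glucocorticoid-responsive gene (-0.46 ± 0.10, adjusted p = 0.0348). DESeq2 called all 6 as well. These calls lay close to the threshold: the direction held for all 6 with each library left out in turn, but the adjusted p then reached between 0.0623 for Mef2c and 0.102 for Rps6ka3, and 0 of the 6 were called without wt replicate 4 or 5 or without Ts65Dn replicate 1, 2 or 4. Without Ts65Dn replicates 3 and 6, Srf was lost (0.22, adjusted p = 0.0773) and the other 5 were called. Called genes numbered 0 of 34 among the other rapid response genes, where Jun (0.36 ± 0.13) and Egr3 (-0.27 ± 0.11) had the smallest p, and 0 of 25 among the delayed genes, where Penk (0.99 ± 0.27, adjusted p = 0.0643) and Crem (-0.35 ± 0.10) did. Below an unadjusted p of 0.05 lay 3 and 5 genes of these 2 lists. So did 13 of the 39 upstream factors, 7 of 14 partners and repressors and 1 of 15 glucocorticoid-responsive genes. Over all genes tested it was 3235 of 17049. DESeq2 called 0 of the rapid response genes and 4 of the delayed genes. Without Ts65Dn replicates 3 and 6, Egr3 measured -0.41 and Crem -0.48.

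Cell markers and the mitochondrial share of counts were compared between the genotypes as well. In the EC, P2ry12, a purinergic receptor of microglia, was called lower (-0.45 ± 0.09, adjusted p = 0.0226), 1 of 6 microglia markers. Of these, 3 had positive and 3 negative estimates, with a median of -0.00435. Drd2, a dopamine receptor, was called higher (1.56 ± 0.33, adjusted p = 0.0254), 1 of 6 striatal markers, with 5 estimates positive and 1 negative. P2ry12 and Drd2 were named after their values were seen. The median log2 fold change was 0.40 over the striatal markers, whose sum ran from 166 to 194 CPM in wt EC and from 156 to 242 in Ts65Dn EC, and -0.73 over 5 blood markers, which summed to 134 to 519 and 104 to 290 CPM. All 5 blood estimates were negative and 0 were called. The mitochondrial share had a median of 5.31% in wt EC and 4.15% in Ts65Dn EC. In the HIP, P2ry12 was called lower too (-0.27 ± 0.06, adjusted p = 0.0422), with 3 microglia markers positive and 3 negative (median 0.0174). The mitochondrial share there was 4.32% in wt and 3.51% in Ts65Dn at the median. Their part in the calls between genotypes was not tested.

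Between regions the related lists split in both directions, unlike the members. In wt mice, 11 of the 34 other rapid response genes were higher in the HIP and 14 lower, with a median of -0.18. Nr4a3, a relative of Nr4a1, was higher (1.73 ± 0.12), as was Jun (0.97 ± 0.10), the partner of Fos in AP-1, while Ccn2 (-2.20 ± 0.12) and Dusp1 (-1.52 ± 0.15) were lower. In Ts65Dn mice the count was again 11 higher and 14 lower, with Nr4a3 (1.84 ± 0.13) and Dusp5 (1.08 ± 0.12) highest and Ccn2 (-2.39 ± 0.39) and Dusp1 (-1.21 ± 0.09) lowest.

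Among the 25 delayed genes, 7 were higher and 11 lower in the HIP of wt mice, and 6 and 12 in Ts65Dn. Dusp4, which acts on nuclear MAP kinases, was higher (1.07 ± 0.10 in wt, 1.23 ± 0.08 in Ts65Dn), and so were Rasl11a in wt (1.10 ± 0.15) and Acan, the proteoglycan of perineuronal nets, in Ts65Dn (0.99 ± 0.13). Rgs4 (-1.80 ± 0.12 and -1.39 ± 0.08) and Pdyn (-1.40 ± 0.08 and -1.47 ± 0.09) were lower.

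Of the 39 upstream factors, 12 were higher and 15 lower in wt, 13 and 12 in Ts65Dn. Camk2b, a subunit of the calcium-dependent kinase of the synapse (0.86 ± 0.03 and 0.80 ± 0.08), and Grin2a, a subunit of the NMDA receptor (0.79 ± 0.05 and 0.85 ± 0.11), were higher in the HIP. Mef2c (-2.49 ± 0.11 and -2.33 ± 0.10) and Prkacb, a catalytic subunit of protein kinase A (-1.22 ± 0.04 and -1.18 ± 0.07), were lower.

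Of 14 partners and repressors, 3 were higher and 8 lower in wt, 3 and 6 in Ts65Dn, with Jun, which stands in this list too, and Arnt, a bHLH-PAS partner (0.35 ± 0.05 and 0.37 ± 0.09), higher and Rxrg, a retinoid X receptor (-1.66 ± 0.24 and -2.13 ± 0.29), lower. The glucocorticoid-responsive genes were mostly higher in the HIP, 8 of 15 higher and 3 lower in wt and 9 and 2 in Ts65Dn. Plin4 (1.68 ± 0.16 and 1.68 ± 0.15) and Fkbp5 (1.13 ± 0.05 and 1.02 ± 0.08), a cochaperone of the glucocorticoid receptor, were higher, and Cdkn1a (-1.04 ± 0.10 and -1.06 ± 0.07) and Per1 (-0.47 ± 0.08 and -0.39 ± 0.06), a clock gene that the rapid response list also holds, were lower.

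The regions differed in their cells as well, with some marker lists lower in the HIP, as the members were, and others higher. Of 8 neuron markers, 5 were lower and 0 higher in the HIP of wt mice, with sums of 8128 to 9014 CPM for HIP and 9817 to 11041 for EC libraries. Oligodendrocyte markers summed to 6851 to 9539 CPM in wt HIP against 1321 to 2622 in wt EC, and markers of dentate granule and CA neurons to 1101 to 1256 against 348 to 420 CPM. The choroid plexus markers ranged from 95.8 to 5122 CPM in wt HIP and from 11.9 to 49.6 in wt EC. The share of these cells in the level of the immediate early genes was not tested.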

How the data were processed

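Whole HIP and EC were profiled by single-end RNA sequencing. Per the methods of the study, the authors aligned reads with Hisat2 to GRCm38 with Ensembl release 99 and counted them per gene with HTSeq-count, and the deposited counts are not normalized; the strand setting of the counting was not given in the sources used here. The labels name a stranded poly(A) kit, the methods a stranded total RNA kit. Of the 55385 genes, 55144 were matched to GENCODE vM21 for position and exon length. The deposited tables of the authors' own fold changes and p-values from DESeq2 and FCROS were not used.

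Counts were tested with edgeR 4.0.16 in R 4.3.3 (filterByExpr, TMM, quasi-likelihood test, adjusted p under 0.05 by Benjamini-Hochberg over all genes tested). Genotypes were compared within each region over 6 against 6 libraries, and regions and the interaction with a term for each mouse, since the mouse number in the titles pairs the regions. Same-numbered HIP and EC libraries deviated together in every mouse (Pearson r over genes 0.178 to 0.426). The SE is the log2 fold change over the square root of F. Levels are TMM-scaled CPM, and log2 CPM used a prior count of 2. Counting error was not separated from the spread between mice. Alternatives were DESeq2 1.42.0, DESeq2 size factors, no filter, at least 10 counts in every library, robust dispersions, the other choice of block and each mouse left out; one without Ts65Dn replicates 3 and 6 was chosen after seeing the data.

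The 10 genes and the related lists were chosen with earlier results of these data known. All 10 are reported; of each other list that holds no cell type markers, up to 4 called genes by adjusted p or else the 2 with the smallest p were named for genotypes, the 2 largest changes each way for regions, and the 5 genes most like the members; markers are given as lists. A further gene that this rule names is not reported here.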

Additional observations from a re-analysis of the deposited data

Results flagged for a closer look

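Dixon's rule flags a library that stands apart from its nearest by more than 0.625 of the range, the 95% critical value for 6 samples. Within groups of 6 libraries it flagged the highest library in 15 of the 40 combinations of gene and group. The critical value holds for normally distributed values, which CPM may not be. The share flagged over all genes was not counted, so no chance rate stands beside the 15. In the 12 that were Ts65Dn groups the library was that of replicate 6. In the HIP these were Fos at 30.4 CPM (next highest 13.1), Junb at 69.6 (37.6), Egr1 at 208 (116), Egr2 at 7.28 (1.51), Egr4 at 27.7 (14.2), Arc at 320.5 (124), Nr4a1 at 93.7 (42.4) and Ier2 at 11.4 (5.79). In the EC they were Fos at 93.6 CPM (28.5), Fosb at 29.9 (14.2), Egr2 at 28.3 (5.68) and Npas4 at 54.4 (19.7).

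The other 3 were wt groups, and the library was that of wt replicate 6, a different mouse: Fosb at 10.5 CPM in the HIP (next highest 5.72) and 20.3 in the EC (14.3), and Egr2 at 16.6 in the EC (5.54). The genes vary together, so these cases are not independent of each other.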

How the results depend on the processing

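Between genotypes, 0 members were called under every alternative run. Only the estimates of Egr4, Npas4 and, in the HIP, Ier2 kept their sign in every fit. With all mice their 95% intervals included 0, apart from that of Npas4 in the EC, so a kept sign does not establish a direction. Over the whole table, HIP calls numbered 181, and 662 by DESeq2, 169 without Ts65Dn mice 3 and 6, and 54 (without Ts65Dn replicate 6) to 318 (without Ts65Dn replicate 3) with single libraries left out. EC calls numbered 426, and 1141 by DESeq2, 275 with no filter on low counts, 675 without Ts65Dn mice 3 and 6, and 90 (without Ts65Dn replicate 1) to 685 (without Ts65Dn replicate 6) with single libraries left out. The interaction called 37 genes with no filter and 0 otherwise. The cause of these changes was not tested.

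The replicate numbers of the 2 genotypes are only names: same-numbered mice had deviations correlated at -0.20 to 0.15 for HIP and -0.08 to 0.17 for EC libraries, with 0 and 1 of 6 closest to their own number. A replicate block on these numbers left 29 HIP and 36 EC calls, took the adjusted p of the 6 called EC genes to between 0.0740 and 0.122, and gave Egr1 -0.040, Egr2 -0.21, Arc -0.095 and Nr4a1 -0.085 in the EC. For regions the mouse was the block. With no replicate block, 5 members were called in Ts65Dn (Fos, Junb and Ier2 lost), Arc there was -0.21, and the interaction was -0.031 for Fos, -0.12 for Junb, 0.023 for Egr4 and -0.057 for Arc. With no filter it was -0.0018 for Junb, and 9 members were called in Ts65Dn.

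Without Ts65Dn mice 3 and 6 the HIP estimates were Fos -0.63, Junb -0.16, Egr1 -0.21, Egr2 -0.96, Arc -0.29 and Nr4a1 -0.18. In the EC they were Fos -0.86, Fosb -0.28, Junb -0.43, Egr1 -0.46, Egr2 -1.08, Arc -1.17, Nr4a1 -0.74 and Ier2 -0.32, and the interaction was 0.086 for Fosb, 0.030 for Egr4 and 0.075 for Npas4. With single libraries left out, HIP estimates ran from -0.25 to 0.84 for Fos, -0.17 to 0.20 for Fosb, -0.032 to 0.41 for Junb, -0.11 to 0.41 for Egr1, -0.73 to 0.97 for Egr2, -0.12 to 0.55 for Arc and -0.14 to 0.33 for Nr4a1. The EC ranges were -0.49 to 0.73 for Fos, -0.22 to 0.23 for Fosb, -0.064 to 0.56 for Junb, -0.27 to 0.15 for Egr1, -0.88 to 0.71 for Egr2, -0.43 to 0.67 for Arc, -0.36 to 0.33 for Nr4a1 and -0.041 to 0.51 for Ier2. The lowest value of each gene in both regions was the fit without Ts65Dn replicate 6. For HIP over EC, Arc in wt ran from -0.21 to 0.17, and the interaction from -0.18 to 0.048 for Fosb, -0.11 to 0.11 for Junb, -0.14 to 0.088 for Egr4, -0.26 to 0.15 for Npas4 and -0.0045 to 0.36 for Nr4a1.

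The 9 members called between regions in wt were called under every alternative run, and 7 to 9 were called in Ts65Dn with single mice left out. The lowest count of a member in a library was 12, and how far depth limits the values of such libraries was not tested.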
